A study of Danio rerio with 6 samples.

Results

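Plk1, aurka, aurkb, cdk1, bub1, cdc20, ckap2l and top2a encode proteins that carry a cell through mitosis, and their signal was followed here in zebrafish embryos injected with a morpholino against the transcription elongation factor Spt5. All probe sets whose platform gene symbol, current or older, was one of these 8 names were taken. This gave 10 probe sets of 15617 on the array, for 6 of the 8 genes, out of 8793 genes with a named probe set: 1 each for plk1, aurka, cdk1, cdc20 and ckap2l, and 5 for top2a. No probe set matched aurkb or bub1 by symbol, and they are not analysed here. The 135 probe sets with several symbols did not name them under the current symbols, and the 4680 with none could hold them. The label of spindle genes covers mixed roles, since cdc20 acts on protein degradation and top2a on DNA.

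RNA from whole embryos of the TL strain was measured on 6 Affymetrix zebrafish arrays. At 21 hours post-fertilization (hpf) there were 2 arrays of embryos injected with the Spt5 morpholino (Spt5 MO), 2 of embryos injected with a commercial standard control morpholino (control MO), and 1 of untreated embryos, and 1 further array held untreated embryos at 5 hpf. A morpholino is a short synthetic oligonucleotide that blocks the splicing or translation of the RNA it pairs with. Both morpholinos carried carboxyfluorescein and were given at 2.5 pmol per embryo at the start of cleavage. Nothing in the labels ties the replicates to separate clutches, so a p-value here covers the spread from array to array and no more, and that spread may be technical. The Spt5 morpholino is shown because it is the agent that sets the groups apart, written 5′ to 3′ in lower case throughout, 25 bases.
Spt5 morpholino: gtttctctacagtctgtcgctcctg

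The sources used here do not state where this oligonucleotide binds, and a morpholino need not lower the level of its RNA, so the array does not check the knockdown. The supt5h probe set read 7.72 and 7.42 on the log2 scale in the Spt5 MO arrays and 7.61 and 7.43 in the control MO arrays. The ranges overlapped, and the difference of 0.05 ± 0.14 (SE) did not pass the test (adjusted p = 0.804).

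In the cell cycle, rising cyclin-bound Cdk1 drives entry into mitosis, and the Aurora A and Polo-like kinases activate it and build the spindle poles. Cdc20 then switches on the anaphase-promoting complex (APC/C), a ubiquitin ligase whose targets include cyclin B and securin, so that sister chromatids part and Cdk1 activity falls. Topoisomerase II alpha untangles the sister DNA molecules before they part. The early zebrafish embryo starts with maternal RNA for many of these proteins and divides rapidly, while by 21 hpf dividing cells lie among tissues that have begun to differentiate.

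Values are normalized probe set intensities on the log2 scale. Probe sets entered the tests with a value of 5 or more, equal to an intensity of 32, on 2 or more arrays, and a difference was counted where the Benjamini-Hochberg adjusted p of limma over all probe sets tested was under 0.05. The median intensity as deposited ran from 18.3 on the 5 hpf array to 44.0 on an array of the control MO group. The arrays of one morpholino group correlated at 0.951 (Spt5 MO) and 0.953 (control MO) over probe sets, against 0.916 to 0.919 between the groups. The 3′ to 5′ signal ratio of the acta1 control probe sets, a measure of RNA integrity and labelling, was 6.94 and 6.99 in the Spt5 MO arrays, 9.91 and 9.61 in the control MO arrays and 7.59 in the untreated 21 hpf array. In the 5 hpf array, on which all age differences rest, the ratio was 1.96. The acta1a gene itself was higher by 6.24 at 21 than at 5 hpf, so the acta1 ratio compares poorly between ages. The ratio of the gapdh control probe sets was 1.39 and 1.42 in the Spt5 MO arrays and 1.70 and 1.76 in the control MO arrays. It was 1.24 in the untreated 21 hpf array and 0.95 in the 5 hpf array. The part of these ratios in the results below was not tested. Of the 21 hpf marker genes, 7 of 7 with a value were at least 2-fold higher at 21 than at 5 hpf (28.4% of all genes were), and of the 5 hpf markers 4 of 5 were at least 2-fold lower (33.3% of all genes were), the exception being tbxta, higher by 2.49.

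The 6 mitotic genes on the array all had lower signal in embryos given the Spt5 MO than in those given the control MO, by 2.17 to 3.96 times. Of the 10 probe sets, 8 passed the intensity filter and 7 of these fell, against 23.0% of the 8457 probe sets tested. In the test, 0 of the 8 were higher, against 24.3% of all, and at an unadjusted p under 0.05 the counts were 8 lower and 0 higher. In all 8, both Spt5 MO arrays lay under both control MO arrays, which held for 36.5% of all probe sets. Of these 8, top2a probe sets 1 and 2 had passed the filter through the control MO arrays alone, so that their direction was set by the filter. Leaving out every probe set that passed through a single morpholino group, 6 of 6 were lower, against 20.4% of the remaining 7674, and the groups did not overlap in 6 of 6, against 34.8%. The plot of the probe sets by array shows these levels. In whole embryos, fewer dividing cells and less of these RNAs per cell cannot be told apart.

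**Figure D1:**
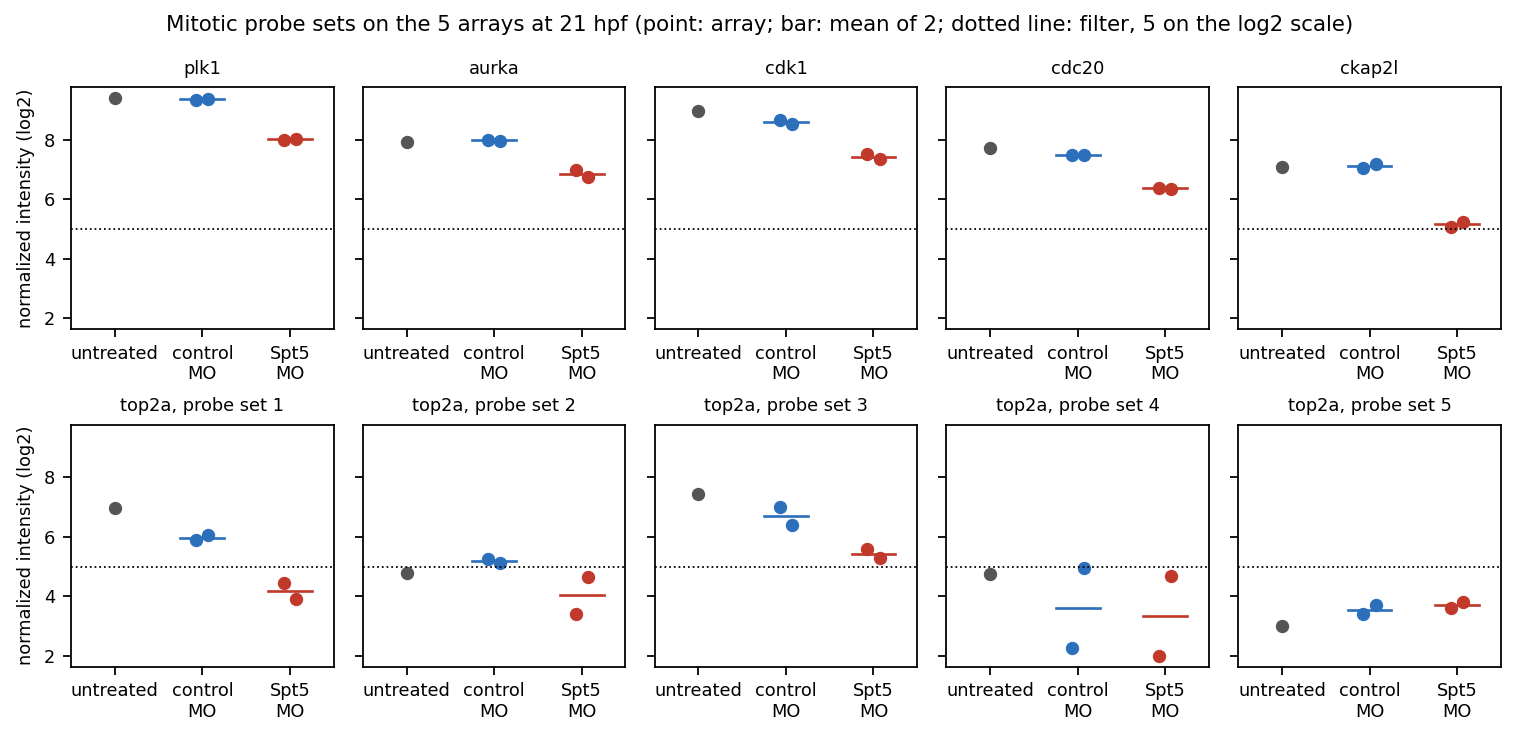
Normalized intensity (log2, vertical axis) of the 10 probe sets on the 5 arrays at 21 hpf. Each point is an array, each bar the mean of 2 arrays, and the dotted line is the filter value of 5. The Spt5 MO arrays lie under the untreated and both control MO arrays in all panels but those of top2a probe sets 4 and 5. In the panel of top2a probe set 2 the Spt5 MO and untreated arrays are under the dotted line. Top2a probe sets 4 and 5 lie under the dotted line on all 5 arrays.

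Among the kinases, plk1, which drives mitotic entry, spindle pole maturation and cytokinesis, had deposited intensities of 206.9 and 271.9 in the Spt5 MO arrays and of 605.4 and 789.7 in the control MO arrays. After normalization these were 7.97 and 8.0 against 9.30 and 9.34 on the log2 scale. The Spt5 MO arrays were the low ones and the groups lay far apart beside a spread of 0.023 and 0.025 (SD, n = 2). Plk1 fell by 1.34 ± 0.09 (SE, 95% confidence interval -1.57 to -1.11, adjusted p = 0.0011), a 2.52-fold difference.

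Aurka, the Aurora kinase of centrosomes and spindle poles, read 6.96 and 6.71 in the Spt5 MO arrays and 7.97 and 7.94 in the control MO arrays. Both Spt5 MO values were lower, with more spread between them (SD 0.18, n = 2) than between the controls (SD 0.023, n = 2). It fell by 1.12 ± 0.12 (SE, interval -1.42 to -0.81, adjusted p = 0.0024), or 2.17-fold.

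Cdk1, the cyclin-dependent kinase whose activity defines M phase, read 7.49 and 7.31 in the Spt5 MO arrays against 8.63 and 8.51 in the control MO arrays. The groups did not overlap. Cdk1 fell by 1.17 ± 0.11 (SE, interval -1.45 to -0.89, adjusted p = 0.0019), or 2.25-fold.

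The APC/C activator cdc20 had the tightest replicates of the 6 genes, at 6.33 on both Spt5 MO arrays and 7.45 and 7.46 on the control MO arrays. The spread within the groups was 0.0064 and 0.0067 (SD, n = 2). It fell by 1.13 ± 0.09 (SE, interval -1.35 to -0.90, adjusted p = 0.0013), or 2.18-fold.

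Ckap2l, a spindle protein studied in the mouse as radmis, had the largest difference of the 6 genes. Its values were 5.01 and 5.20 in the Spt5 MO arrays and 7.03 and 7.16 in the control MO arrays, so the Spt5 MO values lay just above the filter. It fell by 1.99 ± 0.11 (SE, interval -2.28 to -1.69, adjusted p = 9.1e-04), a 3.96-fold difference.

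Top2a, topoisomerase II alpha, was read by 5 probe sets, numbered here in the order of their identifiers. Probe set 3, the brightest and the one used for the gene, read 5.55 and 5.24 in the Spt5 MO arrays and 6.98 and 6.38 in the control MO arrays. The control MO arrays were the higher ones but had a wider spread (SD 0.43, n = 2) than in the 5 genes above. The signal fell by 1.28 ± 0.23 (SE, interval -1.87 to -0.70, adjusted p = 0.0097), or 2.44-fold, and without replicate 2 of the Spt5 MO the adjusted p was 0.0521.

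Probe set 1 of top2a, of a type whose probes can match more than a single transcript, read 4.39 and 3.86 in the Spt5 MO arrays, under the filter, and 5.85 and 6.02 in the control MO arrays. It was at least 1.92-fold lower with the Spt5 MO, taking the dim values at the filter (adjusted p = 0.0024 for the measured values). Probe set 2 read 3.38 and 4.61 against 5.22 and 5.06 and did not pass the test (-1.15 ± 0.40 SE, adjusted p = 0.0652). The direction of its values was that of probe sets 1 and 3, with a spread between the Spt5 MO arrays of 0.87 (SD, n = 2). Probe sets 4 and 5 were under the filter on every array at 21 hpf and were not tested. Probe set 4 read 1.96 and 4.64 in the Spt5 MO arrays and 2.24 and 4.89 in the control MO arrays, a wide spread with overlapping groups.

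Untreated embryos at 21 hpf showed levels of these genes close to the control MO for plk1, aurka and ckap2l and somewhat above it for cdk1, cdc20 and top2a probe sets 1 and 3. Of the 8 probe sets tested over the 5 arrays, 7 were lower with the Spt5 MO than in the untreated array, against 20.9% of the probe sets tested. Among the 7 is top2a probe set 1, under the filter in both Spt5 MO arrays, which entered through the other arrays, and this favours a lower value. The lone untreated array was assumed to vary like the morpholino groups, and the comparisons share arrays, so their values are given side by side. The plot of the 3 differences per probe set shows them together.

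**Figure D2:**
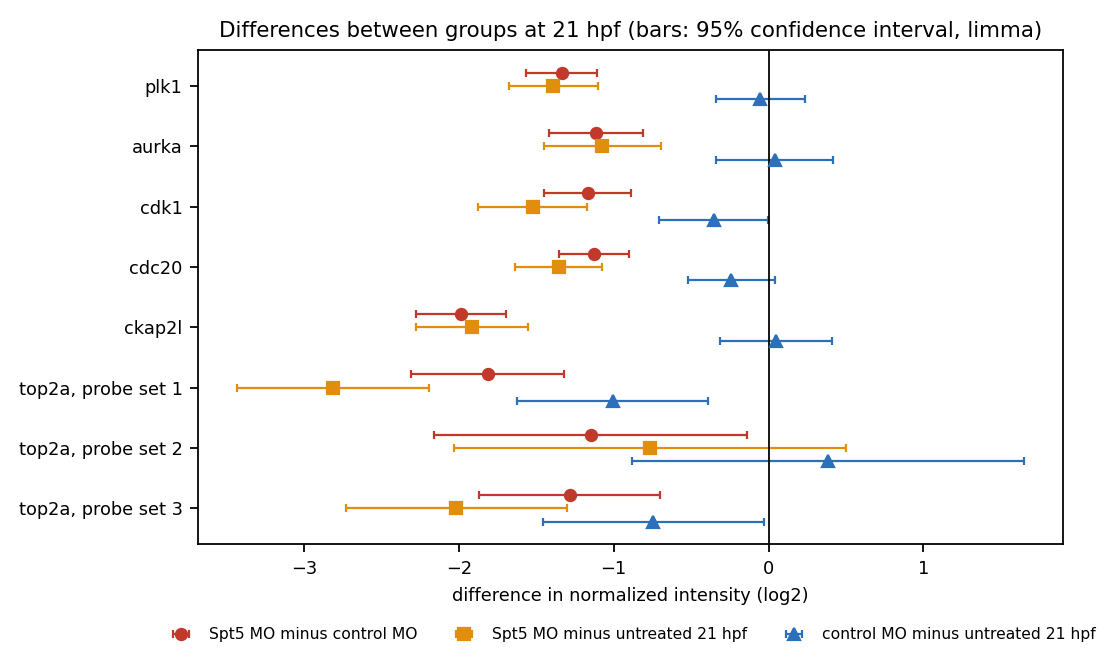
Difference in normalized intensity (log2, horizontal axis) with its 95% confidence interval from limma for the 8 tested probe sets. Circles are Spt5 MO minus control MO, squares Spt5 MO minus untreated 21 hpf, and triangles control MO minus untreated 21 hpf. Circles and squares lie between -2.81 and -0.77, and the triangles between -1.01 and 0.38.

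On the scale of these 5 arrays the untreated value of plk1 was 9.40, from which the Spt5 MO differed by -1.39 ± 0.11 (SE, adjusted p = 0.0017) and the control MO by -0.05 ± 0.11 (interval -0.34 to 0.23, adjusted p = 0.811). The untreated value of aurka was 7.94, and the Spt5 MO differed from it by -1.07 ± 0.15 (SE, adjusted p = 0.0054) and the control MO by 0.04 ± 0.15 (interval -0.34 to 0.42, adjusted p = 0.895). Ckap2l was at 7.07 in untreated embryos, with differences of -1.92 ± 0.14 (SE, adjusted p = 0.0016) for the Spt5 MO and 0.05 ± 0.14 (interval -0.31 to 0.41, adjusted p = 0.863) for the control MO. For these 3 genes the Spt5 MO arrays were low beside both kinds of 21 hpf control. The differences between the controls were near 0, with intervals that reach 0.42.

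Cdk1 read 8.95 in untreated embryos, the highest value of the 5 arrays, and differed by -1.52 ± 0.14 (SE, adjusted p = 0.0021) with the Spt5 MO and by -0.35 ± 0.14 (interval -0.71 to -0.0025, adjusted p = 0.212) with the control MO. Cdc20 read 7.72, also the highest, with differences of -1.36 ± 0.11 (SE, adjusted p = 0.0017) and -0.24 ± 0.11 (interval -0.52 to 0.04, adjusted p = 0.260). In both genes the order of the groups was untreated, control MO, Spt5 MO, and the first step of that order did not pass the test.

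Top2a probe sets 1 and 3 showed the same order with wider steps. Probe set 3 read 7.45 in the untreated array, above both control MO arrays at 7.01 and 6.41, and differed by -2.02 ± 0.28 (SE, adjusted p = 0.0056) with the Spt5 MO and by -0.74 ± 0.28 (interval -1.46 to -0.03, adjusted p = 0.204) with the control MO. Probe set 1 read 6.98 in the untreated array, at least 3.95-fold over the Spt5 MO (adjusted p = 0.0019), and the control MO differed from it by -1.01 ± 0.24 (SE, adjusted p = 0.0999). Probe set 2 was under the filter in both the untreated array (4.80) and the Spt5 MO arrays, so no fold is given.

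Between control MO and untreated embryos 0 of the 8 probe sets passed the test in limma, against 1.13% of all probe sets that were lower and 1.75% that were higher. At an unadjusted p under 0.05, 3 were lower and 0 higher. With an intensity trend in the variance model 1 passed, top2a probe set 1 (adjusted p = 0.0360).

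Between 5 and 21 hpf the 6 genes did not move together. There was 1 untreated array per age, so these differences have no replicate check and no test. Of the 7 probe sets above the filter, 2 were at least 2-fold lower at 21 hpf, against 32.8% of the 9294 probe sets compared, and 4 were at least 2-fold higher, against 30.2%. Cdc20 was lower at the later age, and cdk1, ckap2l and top2a were higher. Aurka was lower in the scalings given below but not always by 2-fold, and the sign for plk1 depended on the scaling.

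Cdc20 read 10.73 at 5 hpf and 7.62 at 21 hpf, an 8.60-fold lower level at the later age. Aurka read 9.06 and 7.83, a difference of -1.22, which was -0.61 in the deposited values and -0.76 with arrays centred on spike-in controls, both under 2-fold. Plk1 read 9.75 and 9.10, a difference of -0.65 that turned to 0.29 in the deposited values and 0.15 with the spike-in centring. The median of all probe sets compared was itself -0.16 after quantile normalization, 0.70 in the deposited values and 0.52 with the spike-in centring, so plk1 and aurka lay under that median in each case.

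Cdk1 read 6.02 at 5 hpf and 8.70 at 21 hpf, 6.43-fold higher. Ckap2l went from 5.09, just above the filter, to 7.0, a 3.74-fold difference. Top2a probe set 3 read 5.86 and 7.37, or 2.84-fold, though 0.86 on the log2 scale with arrays centred on their medians, and probe set 1 read 4.97, under the filter, and 6.91, at least 3.75-fold higher. These 3 genes were higher at 21 hpf under each scaling tried.

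The directions with the Spt5 MO and with age are given side by side. With 1 array per age, the levels between 5 and 21 hpf are not known. Cdc20, high at 5 hpf, was lower with the Spt5 MO, and so were cdk1, ckap2l and top2a, which were low at 5 hpf. Among the stage markers, 6 of 6 tested genes of the 5 hpf list were higher with the Spt5 MO than with the control MO (22.6% of all 5688 genes were higher), 2 of them having passed the filter through the Spt5 MO arrays alone. Of these 6, vox (-1.02) and pou5f3 (-7.18) were lower at 21 than at 5 hpf, and tbxta was higher (2.49). Ved, vent and szl were under the filter in the untreated arrays of both ages and had no age value. These arrays thus do not show those last genes to be higher at 5 hpf. Nanog and chrd, both lower at 21 hpf, were not tested between the morpholinos. In control MO against untreated embryos 2 of the 6 were also higher (1.72% of all genes were). Of the 8 tested of the 21 hpf list 4 were lower (24.5% of all genes were) and 1 higher. The part of embryonic stage in the mitotic results was not tested.

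The 6 genes were then set beside other mitotic genes, in 7 lists by role, with 1 probe set per gene. Of 180 listed genes 120 were on the array and 108 passed the filter. With the Spt5 MO 84 of these 108 were lower than with the control MO, against 24.5% of all genes tested, and 0 were higher, against 22.6%. At an unadjusted p under 0.05, 87 were lower and 1 higher. Of the 84, 18 had passed the filter through the control MO arrays alone, which fixes their direction, and without such genes 66 of 90 were lower (median -0.87), against 22.2% of the remaining 5242 genes. The median difference was -0.91, against 0.00298 over all genes tested and -1.23 over the 6 genes above. Without a filter 36 of 120 were lower, against 532 of all 15502 probe sets.

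**Figure D3:**
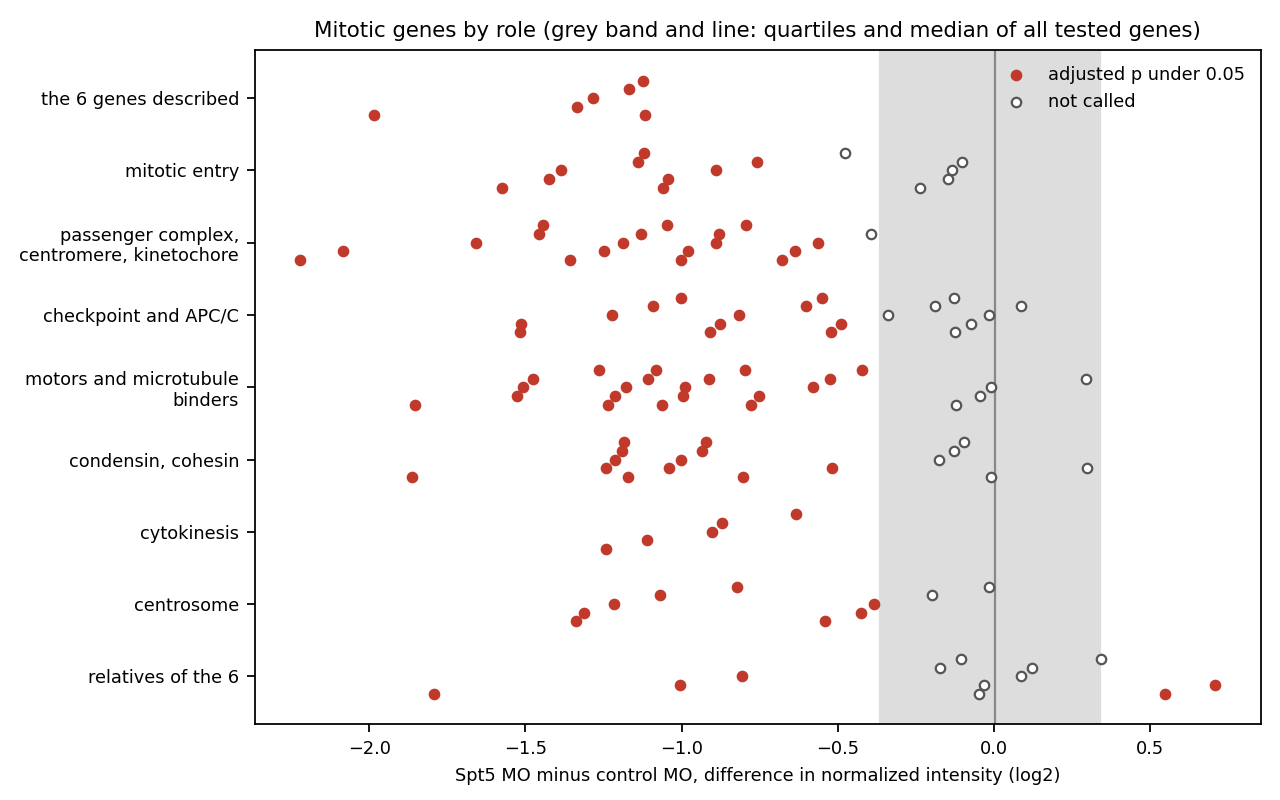
Difference between Spt5 MO and control MO in normalized intensity (log2, horizontal axis) for each tested gene of the role lists, 1 probe set per gene. Filled points passed an adjusted p under 0.05 in limma, open points did not, and the grey band and line are the quartiles (-0.37 and 0.34) and median of all genes tested. The 6 genes described and most points of the 7 mitotic lists lie to the left of the band, while the relatives lie on both sides.

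Of the regulators of mitotic entry, which set the timing of Cdk1 activity, 9 of 14 were lower (median -0.97), against 24.5% of all genes. Of these 9, 3 had passed the filter through the control MO arrays alone, and without such genes 6 of 11 were lower (median -0.76). Ccna2, which encodes cyclin A2, fell by 1.42 ± 0.11 (SE, adjusted p = 0.0013). Foxm1, a transcription factor of G2 and M phase genes, was at least 2.44-fold lower (adjusted p = 9.1e-04), and the histone H3 kinase gene haspin at least 1.45-fold lower (adjusted p = 0.0030). Both were under the filter in the Spt5 MO arrays, so that their direction was set by the filter.

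The chromosomal passenger, centromere and kinetochore list, whose products tie chromosomes to spindle fibres and include the partners of Aurora B, had 18 of 19 genes lower (median -1.05). The share of all genes that were lower was 24.5%. The genes named by the measured difference were cenps, nsl1 and ska1, all dim in the Spt5 MO arrays, where values under the filter have no reliable order. They were at least 1.94-fold (adjusted p = 0.0013), 1.26-fold (adjusted p = 0.0053) and 1.31-fold lower (adjusted p = 9.1e-04). Of these 19 genes, 4 had passed the filter through the control MO arrays alone.

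Of the spindle checkpoint and APC/C genes, the circuit in which cdc20 acts, 12 of 19 were lower, against 24.5% of all genes. The median of -0.55 was the smallest in size of the 7 lists. Of these 12, 3 had passed the filter through the control MO arrays alone. Without such genes 9 of 16 were lower (median -0.51), and the centrosome list then had the smallest median (-0.41). Ttk, the kinase known as Mps1 that starts checkpoint signalling, fell by 1.51 ± 0.10 (SE, adjusted p = 0.0010). Trip13, an ATPase that takes checkpoint complexes apart, was at least 1.70-fold lower (adjusted p = 0.0015), and the APC/C subunit gene anapc5 at least 1.74-fold lower (adjusted p = 0.0015). Trip13 and anapc5 were under the filter in both Spt5 MO arrays, so that their direction was set by the filter.

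The list of spindle motors and microtubule binders, to which ckap2l is closest in role, had 20 of 24 genes lower (median -0.99). This compares with 24.5% of all genes. Of these 20, 3 had passed the filter through the control MO arrays alone, and without such genes 17 of 21 were lower. Kpna2, an importin alpha that carries spindle assembly factors, fell by 1.85 ± 0.11 (SE, adjusted p = 9.7e-04). Dlgap5, a microtubule-stabilising protein of the spindle, fell by 1.53 ± 0.11 (SE, adjusted p = 0.0012), and kif20a, a kinesin of the central spindle, by 1.51 ± 0.13 (SE, adjusted p = 0.0015). Further probe sets of these genes that were tested had smaller differences, 1 for kif20a (-0.96) and 2 for dlgap5 (-0.76 and -0.99), and all of these passed the test.

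Of the condensin and cohesin genes, whose complexes compact chromosomes and hold sister chromatids beside top2a, 12 of 17 were lower (median -0.93). The share of all genes that were lower was 24.5%. The condensin genes tested were all lower, while the 5 genes not called were all cohesin genes, and other cohesin genes were lower. The count of lower genes includes mki67 (-1.17), which belongs to neither complex. The condensin II subunit gene ncapg2 was at least 2.37-fold lower (adjusted p = 0.0011), but it had passed the filter through the control MO arrays alone. Without it 11 of 16 were lower. Smc4, shared by both condensins, fell by 1.24 ± 0.12 (SE, adjusted p = 0.0020). The condensin II gene ncapd3 fell by 1.21 ± 0.10 (SE, adjusted p = 0.0013), but it was higher in control MO than in untreated embryos by 0.78 ± 0.12 (SE, adjusted p = 0.0465), and the Spt5 MO differed from untreated embryos by -0.43 (adjusted p = 0.0390).

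Cytokinesis genes were lower in 5 of 5 cases (median -0.90), against 24.5% of all genes. Among them were cita, a citron kinase of the midbody (-1.11 ± 0.13 SE, adjusted p = 0.0031), and the contractile ring gene anln (-0.90 ± 0.14 SE, adjusted p = 0.0062). A further probe set of anln had a smaller difference (-0.62, adjusted p = 0.0147). The probe sets of cep55l, named for the abscission factor CEP55, did not tell the same story, with -1.24 ± 0.21 (SE, adjusted p = 0.0078) in the brighter and -0.15 (adjusted p = 0.739) in the other. Of the centrosome genes, which share the site of Plk1 and Aurora A action, 8 of 10 were lower (median -0.68). Of these 8, 4 had passed the filter through the control MO arrays alone, which fixes their direction. Without such genes 4 of 6 were lower (median -0.41), against 22.2% of all remaining genes. Tubg1, gamma-tubulin, fell by 1.22 ± 0.09 (SE, adjusted p = 0.0013). The centriole duplication kinase gene plk4 was at least 1.57-fold lower (adjusted p = 0.0048), and haus4, of the augmin complex, at least 1.48-fold lower (adjusted p = 0.0082). Plk4 and haus4 were under the filter in both Spt5 MO arrays, so that their direction was set by the filter. A further probe set of haus4 was also lower (-2.40, adjusted p = 0.0106), and its levels are not given here.

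Relatives of the 6 genes with other duties, such as plk3, cyclin-dependent kinases and topoisomerases, had 3 lower and 2 higher of 12 tested. This is close to the shares of all genes (24.5% and 22.6%), and the median was -0.04. Plk3 was the only Polo-like kinase tested in this list, and plk4, which was lower, was counted with the centrosome genes. The type I topoisomerase gene top1a read 7.55 and 7.56 in the Spt5 MO arrays and 9.34 and 9.35 in the control MO arrays and fell by 1.79 ± 0.09 (SE, adjusted p = 7.4e-04). Further probe sets of top1a that were tested differed by -1.92, -2.12 and -1.35, and all of these passed the test. The topoisomerase II beta gene top2b, the paralog of top2a found also in cells that no longer divide, differed by -0.03 (adjusted p = 0.825). That value is from 1 of the 5 probe sets of top2b, of the same type as top2a probe set 1, and the others are not given here. Whether top2a and top2b differed in their response was not tested.

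Of the kinases, cdk2, which acts at the start and during DNA replication, fell by 1.01 ± 0.09 (SE, adjusted p = 0.0017). Cdk16 fell by 0.81 ± 0.11 (SE, adjusted p = 0.0040). The stress-responsive plk3 was higher by 0.71 ± 0.12 (SE, adjusted p = 0.0074) and the neuronal kinase gene cdk5 by 0.55 ± 0.09 (SE, adjusted p = 0.0080), opposite to plk1 and cdk1. In the deposited values the test was missed by plk3 (0.51, adjusted p = 0.285) and cdk5 (0.29, adjusted p = 0.596), and cdk5 also missed it with spike-in centring (0.18, adjusted p = 0.292). Without a filter the test was missed by plk3 (adjusted p = 0.0762), cdk5 (adjusted p = 0.0761) and cdk16 (adjusted p = 0.0589).

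Between control MO and untreated embryos, 2 of 111 genes of the 7 lists were lower (0.927% of all genes were) and 1 was higher (1.72% of all genes were). These were cdca5 (-0.91 ± 0.12 SE, adjusted p = 0.0389), pds5b (-0.76 ± 0.12 SE, adjusted p = 0.0469) and the ncapd3 given above, named because they were the only ones and all from the condensin and cohesin list. Spt5 MO embryos had 86 of 111 lower than the untreated array and 0 higher (21.9% of all genes were lower and 21.9% higher), with a median of -0.98. Genes under the filter in both Spt5 MO arrays, such as foxm1 and cenps, entered this comparison through the other arrays, which favours a lower value. No count without them is given here.

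The age difference of a mitotic gene bore little linear relation to its Spt5 difference. Across 113 genes, the 7 lists with the 6 genes, Pearson's r was -0.06 and Spearman's rho -0.05, as a description over genes that share the same arrays. Over all 7818 probe sets with both differences the relation was also weak, with r at -0.17 and rho at -0.12. Of the list genes at least 2-fold lower at 21 hpf, 32 of 38 (84.2%) were lower with the Spt5 MO, beside 19.3% of all 1298 named genes of that kind. Of those at least 2-fold higher at 21 hpf the count was 14 of 16 (87.5%), beside 30.5% of 1755, and of those within 2-fold it was 38 of 53 (71.7%), beside 24.9% of 2331. The lower list genes counted here include the 18 that passed the filter through the control MO arrays alone, which fixes their direction. No count by age without them is given. The plot of both differences per gene shows the 6 genes spread along the age axis.

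**Figure D4:**
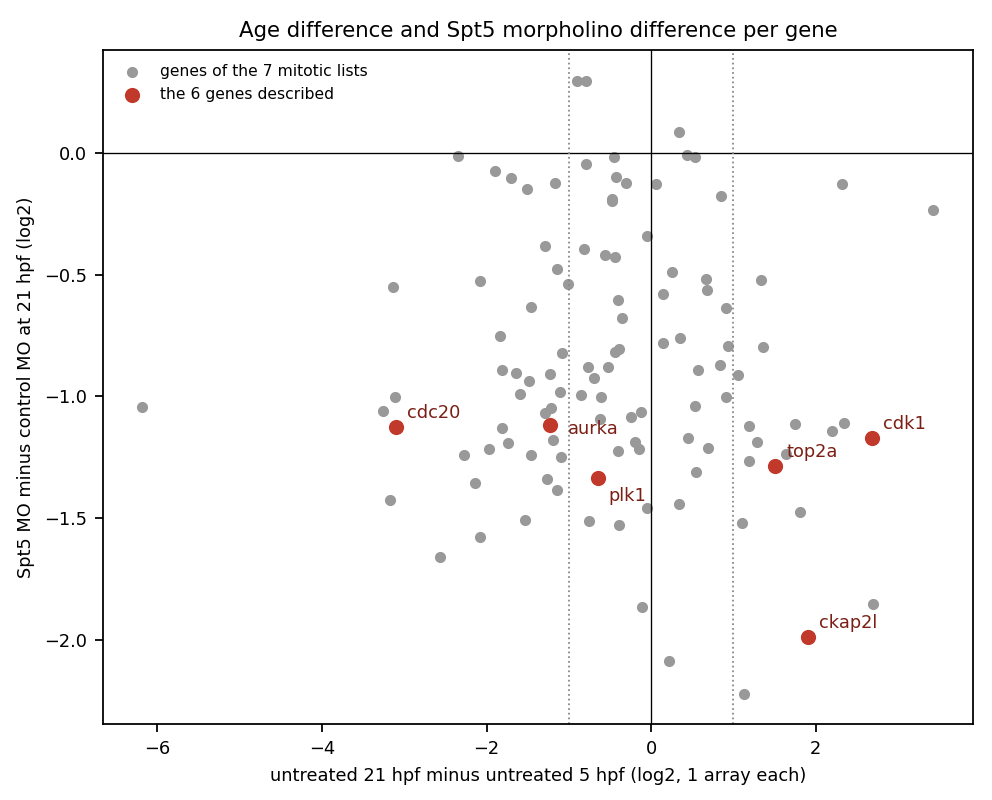
Each point is a gene with 1 probe set, placed by its difference between untreated 21 hpf and 5 hpf embryos (log2, horizontal axis, 1 array each) and by its difference between Spt5 MO and control MO at 21 hpf (log2, vertical axis). Grey points are genes of the 7 mitotic lists, red points the 6 genes, and dotted lines mark 2-fold with age. The red points run from -3.10 to 2.69 along the horizontal axis and from -1.99 to -1.12 along the vertical axis.

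The likeness of other genes to the 6 was measured over all 6 arrays, as the root mean square distance on the log2 scale between a gene's profile around its own mean and the mean profile of the 6. Among 5769 ranked genes the 5 nearest were pold1 (0.0465), which encodes the catalytic subunit of DNA polymerase delta, tubg1 (0.0851), hat1 (0.0855), a histone acetyltransferase, rfc1 (0.0905), of the clamp loader of DNA replication, and tomm34 (0.0923). Because the ranking used these same arrays, the differences of the 5 genes follow from how they were picked and are no separate result. With the Spt5 MO they differed from the control MO by -1.30, -1.22, -1.50, -1.37 and -1.37, and all passed the test, which is no support for the likeness. Their age differences, small by the same choice, ran from -0.14 to 0.32.

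The mean profile is a poor stand-in for some of the 6. Plk1 was nearest to it at 0.247, with 77 genes closer, followed by top2a at 0.436 and aurka at 0.460. Cdc20 was farthest at 1.29, with 4658 genes closer, and cdk1 had 3632 closer. The distance of these last genes goes with their 5 hpf values, high in cdc20 and low in cdk1.

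Levels of other gene groups moved beside the mitotic genes. Of 42 tested genes of DNA replication and S phase, 39 were lower with the Spt5 MO than with the control MO and 0 higher (median -1.18), against 24.5% lower and 22.6% higher of all genes, and 4 of the 39 had passed the filter through the control MO arrays alone. Their summed intensity was 6195 and 6028 in the Spt5 MO arrays, 13880 and 13760 in the control MO arrays and 15718 in the untreated array. The list of p53 targets and cell cycle arrest genes had 11 higher and 2 lower of 15 (median 0.89), against 22.6% higher and 24.5% lower of all genes, with sums of 10266 and 10243, of 6799 and 7048, and of 3714. Both control MO arrays thus lay between the untreated and the Spt5 MO arrays for this list, and 4 of its 15 genes were higher in control MO than in untreated embryos, against 1.72% of all genes. A gene of this list under the filter in both control MO arrays would have entered through the Spt5 MO arrays, which favours a higher value. No count of the p53 and arrest list without such genes is given here.

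Of 10 neural progenitor markers, a cell type that divides at 21 hpf, 3 were lower and 3 higher with the Spt5 MO (24.5% and 22.6% of all genes were), and none was under the filter on all arrays. Their summed intensity was 2713 and 2806 in the Spt5 MO arrays, 2786 and 2881 in the control MO arrays, which overlap, and 3130.5 in the untreated array. Of 10 markers of postmitotic neurons 3 were under the filter on all arrays, and of the 7 tested 4 were lower and 1 higher, beside the same shares of all genes. Their sums were 888.6 and 845.7, 1133 and 1135, and 1358. Between control MO and untreated embryos, 2 of the 10 progenitor markers were lower and 0 higher (0.927% and 1.72% of all genes were). Of the 7 neuron markers tested, 0 were lower and 0 higher there. The part of these cell types in the differences of the 6 genes was not tested.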

How the data were processed

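Each deposited value is the intensity of a probe set on a linear scale, which the authors made with GCRMA per the submitters' processing notes, which name no version or settings. The arrays did not share a distribution, so the log2 of the deposited intensity was quantile normalized across the arrays in each fit: 4 morpholino arrays, 5 arrays at 21 hpf, or the 2 untreated arrays for age. The 115 control probe sets were left out. For age, log2 of 5 or more on 1 array sufficed.

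Differences were tested with limma 3.58.1 in R 4.3.3 (lmFit, eBayes, two-sided, Benjamini-Hochberg adjustment), checked on simulated data. Residual degrees of freedom were 2 for the 4 arrays. The median within-group SD was 0.11, and precision is limited by how few arrays there are. Where a group lay under log2 5 on all its arrays and the other did not, a fold is a lower limit with dim values raised to 5.

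In the platform annotation 10802 probe sets have 1 symbol, 135 several and 4680 none. The RefSeq gene table gave current symbols, by Entrez identifier, for 10718, and 84 kept that of the platform. A gene with several probe sets was represented by that with the highest mean log2 over the 6 arrays. No genome build is named, so no coordinates are given.

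The genes and lists were chosen with earlier results of these data known. Named genes are all probe sets of the 8 genes, the 3 largest differences past the threshold per role list, any past it the opposite way to most of its list, and the 5 nearest profiles. Tbxta, vox, pou5f3, ved, vent, szl, nanog, chrd, cdca5, pds5b, mki67, top2b, mapre1b and stag2a were named after their values were seen. The lists are the 7 mitotic role lists, the relatives, S phase, p53 and arrest, neural progenitors, postmitotic neurons, and 2 stage checks.

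Alternatives were the values as deposited, arrays centred on 18 spike-in probe sets or on medians, no filter or a filter at 6, a variance trend, each replicate left out, a replicate block, all 5 arrays in one fit, quantile normalization over 6 arrays and a 1.5-fold limit for age. Over 8457 probe sets the differences between replicates 1 and 2 correlated at 0.25 between the morpholino groups, with 2 pairs, and no label says that the numbers mark a shared batch, so the samples were treated as sharing only a number.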

Additional observations from a re-analysis of the deposited data

How the results depend on the processing

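Over 12 alternatives the difference between Spt5 MO and control MO ran from -1.66 to -1.26 for plk1, -1.44 to -0.99 for aurka, -1.48 to -1.08 for cdk1, -1.45 to -1.05 for cdc20, -2.35 to -1.87 for ckap2l and -1.65 to -0.99 for top2a probe set 3. Without a filter 15502 probe sets entered the adjustment. Of the 10 probe sets of the 6 genes 4 were then lower, in place of 7 of 8. Of the mitotic lists 36 of 120 genes were lower, in place of 84 of 108. Over all probe sets 532 of 15502 were lower, in place of 1942 of 8457. Aurka (adjusted p = 0.0505), top2a probe set 1 (adjusted p = 0.0508) and top2a probe set 3 (adjusted p = 0.0885) missed the threshold. Against untreated embryos aurka (adjusted p = 0.0646) and top2a probe set 3 (adjusted p = 0.0679) missed it without a filter. Without probe sets that passed the filter through 1 morpholino group alone, a setting chosen after seeing the data, 6 probe sets of the 6 genes and 66 mitotic genes were lower and 0 of either were higher. Top2a probe set 2 passed in 5 of 9 alternatives for the morpholinos. With a replicate left out in turn, 6 to 7 probe sets and 55 to 73 mitotic genes were lower, the smallest count without replicate 1 of the control MO, when 90 genes were tested. A single mitotic gene was higher with the filter at 6 and with a variance trend (mapre1b, 0.29 in each, adjusted p = 0.0736 as reported) and 1 with the replicate block (stag2a, 0.30, adjusted p = 0.121 as reported). With the replicate block 7 probe sets and 86 mitotic genes were lower, and the block is no evidence of pairing, since the arrays share only a number. Between control MO and untreated embryos 1 probe set was lower with the trend, and differences near 0 changed sign for plk1 (0.017 with spike-in centring, 0.011 with median centring) and for ckap2l (-0.015 without replicate 2 of the control MO and 0.12 without replicate 1). With age, 1 probe set in place of 2 was at least 2-fold lower in the deposited values and 1 with spike-in centring.

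Over all probe sets 1942 were lower and 2059 higher of 8457 with the Spt5 MO as reported. The counts were 532 and 342 of 15502 without a filter, 1350 and 305 of 8485 in the deposited values and 3768 and 698 of 8493 with spike-in centring. Under these last 2 settings 8 of 8 probe sets of the 6 genes were lower. Of the mitotic genes 75 of 107 and 104 of 112 were. The median difference over all probe sets was 0.04 as reported, -0.21 in the deposited values and -0.34 with spike-in centring. With a replicate left out the lower calls ran from 1158 to 1463 and the higher from 975 to 1612. Of the 6 genes each stayed lower than that median under these scalings. The cause of these moves was not tested. No probe set was matched to aurkb and bub1, there are 2 arrays per morpholino group and 1 per untreated age, and levels near the filter, as in ckap2l and most top2a probe sets, limit what a fold can say.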
